A study of Mus musculus with 8 samples.

Results

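The genes described here are the 79 cytosolic ribosomal protein genes of a series on microglia, the resident macrophages of the brain. They were selected on 3 columns of the authors' deposited table, as protein-coding genes with a mean signal above 0 whose symbol is Rpl or Rps followed by a number. The pattern found 84 of the 46983 rows. Of the other 5, the rows Rps12l1, Rps4l, Rps3a2 and Rps3a3 are annotated as pseudogenes, and Rpl10l had no reads. The weakest gene inside the limit was Rpl3l, at a mean signal of 0.0203 CPM (counts scaled to a common total for all genes), and Rpl10l, listed at 0, lay just outside. The 79 genes comprise 48 of the large and 31 of the small subunit, and all of them passed the filter on low values that left 22546 genes for testing. The symbol pattern misses 6 further ribosomal proteins, Rpsa and Rplp0 among them, which are given separately.

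A ribosome holds a small subunit, which reads the mRNA, and a large subunit, which joins amino acids, and nearly every ribosomal protein is present in a single copy in it. Cells therefore make these proteins in matched amounts, largely by controlling translation of their mRNAs, which begin with a C followed by a run of pyrimidines (the 5′ terminal oligopyrimidine, or TOP, motif) and answer to the kinase mTOR through the binding protein Larp1. Ribosomal proteins that are not assembled are degraded, and a few of them bind Mdm2 and so stabilise p53. Microglia that meet damaged myelin engulf it, and their lysosomal and secreted proteins are made on these ribosomes.

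Total RNA was sequenced from 8 libraries of microglia isolated from the corpus callosum of FvB/C57BL6 hybrid mice. All mice carried the tamoxifen-inducible recombinase Cx3cr1-CreER, which acts in cells that express Cx3cr1. Qk-KO mice were QKLoxP/LoxP, homozygous for a Qk allele with loxP sites, and WT mice were QKLoxP/+, heterozygous for it, so that WT mice also carried the recombinase and a floxed allele. Mice aged 8 weeks received tamoxifen and then 0.2% cuprizone, a copper chelator that kills oligodendrocytes, in the diet for 6 weeks. Qk encodes quaking, an RNA-binding protein of splicing and mRNA stability, and the series compares microglia with and without it during demyelination.

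By sample name 4 libraries were Qk-KO and 4 were WT, but the genotype field contradicts the name for named Qk-KO 1 and 3 and for named WT 2 and 3. Each combination of name and field thus holds 2 libraries, both groupings are given, and no difference is assigned to a genotype. The labels do not say that each library came from its own animal, so p-values rest on library-to-library spread that may be partly or wholly technical. Qk itself averaged 793.6 CPM, at log2 values of 15.29 to 15.69 in named Qk-KO and 15.37 to 15.50 in named WT libraries, and the exons counted may include some outside the deleted stretch. By genotype field Qk was 15.37 ± 0.06 in Qk-KO and 15.54 ± 0.14 in WT (SD, n = 4 each). By sample name the order was the opposite, at 15.494 ± 0.180 in Qk-KO and 15.415 ± 0.059 in WT (SD, n = 4 each). Rough totals of reads assigned to genes were 43.9 to 58.5 M in named Qk-KO and 59.7 to 69.7 M in named WT libraries, so depth did not overlap between the named groups and cannot be told apart from them. Microglial markers summed to 17786 to 20045 CPM in named Qk-KO and 20984 to 22981 CPM in named WT libraries, far above the summed markers of any other cell type examined. Named WT 4 held the lowest value of 71 members, as described below. The members' median and count of positive differences, the medians of several lists, and the stated differences of named genes that it moves by over 1.5 times, are therefore also given without it.

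Ribosomal protein mRNAs were well represented in every library. Together the 79 genes took 3.55% of the mean signal, or 35466 CPM. Their share was 3.69%, 3.67%, 3.65% and 3.75% in named Qk-KO 1 to 4, against 3.39%, 3.54%, 3.47% and 3.22% in named WT 1 to 4. The 2 sets of shares did not overlap. In bulk RNA such as this, fewer cells of a type and less RNA per cell cannot be told apart. Of the 79 genes, 73 exceeded 100 CPM, 4 lay between 1 and 100 CPM and 2, Rpl3l and Rpl39l, lay under 1 CPM.

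Divided by spliced transcript length, the 73 abundant genes ranged from 96.3 to 1859 CPM per kilobase, with a median of 607. Rps29, a zinc-binding protein of the small subunit, had the highest level per kilobase at 1859, followed by Rps27 at 1564 and Rps28 at 1489.5. Rps9, which sits at the mRNA entrance of the small subunit, came next at 1242. Rpl41, the shortest peptide of the ribosome, reached 1045 CPM per kilobase. Rpl3, which reaches close to the site of peptide bond formation, stood at 747, and Rpl4, which lines the exit tunnel of the nascent chain, at 619. The lowest of the 73, at 96.3, was Rps20, whose annotated transcript used here is the longest of the members at 3706 bases. A level per kilobase depends on the transcript chosen, and 62 of the 79 members had one shorter than 1 kilobase, with a median of 681 bases.

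The 4 members between 1 and 100 CPM are all paralogues of a standard ribosomal protein. Rpl36al had 141 CPM per kilobase, beside 439 for Rpl36a, and so gave 24.4% of the pair. Rpl22l1, which can replace Rpl22 in the ribosome, had 41.6 CPM per kilobase beside 404 for Rpl22, or 9.34% of the pair. Rpl7l1, which in human cells takes part in assembly of the large subunit, had 42.9 beside 578 for Rpl7, or 6.90% of the pair. Rps27l, a target of p53, had 36.0 beside 1564 for Rps27, or 2.25% of the pair. The 2 weakest members are known from other tissues. Rpl39l, a protein of male germ cells in mice, had 1.16 CPM per kilobase beside 385 for Rpl39, and Rpl3l, a protein of striated muscle, had 0.0147 beside 747 for Rpl3. Reads that fit a paralogue, or one of the many near-identical ribosomal protein pseudogenes, could be placed on either, so these shares are uncertain.

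Nearly all members had slightly higher values in the libraries named Qk-KO, by 12.4% at the median, but limma called none of them. On the deposited log2 scale 76 of 79 differences (named Qk-KO minus named WT) were positive, where 48.8% of all tested genes were. Their median was 0.17, which is 1.12-fold, beside -0.004 over all genes tested and 0.02 over the 1631 other genes of at least 100 CPM. Because members vary together across libraries, a count of signs is 1 observation about 8 libraries and not many separate ones. At an adjusted p under 0.05 limma called 0 of 79 members, beside 0.00444% (1 gene) of all genes tested, and the smallest adjusted p of a member was 0.315, for Rpl12. At an unadjusted p under 0.05, 52 members were higher in named Qk-KO, beside 3.76% of all genes tested, and 0 were lower. This count was 34 after quantile normalization, beside 3.94% of all genes. It was 21, beside 3.12% of all genes, when named WT 4 and named Qk-KO 1 were both left out, an alternative chosen after the values were seen.

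The authors' deposited table, whose fold changes follow the sample names, called 3 of the 77 members with an adjusted p as higher in named Qk-KO at 0.05, beside 0.551% of the 14150 genes it tested, and 0 as lower. At an adjusted p under 0.1 the authors' deposited table had 9 members, beside 0.933% of its genes. These were Rpl12, Rpl23, Rps21, Rps3, Rpl36a, Rps7, Rpl9, Rpl27 and Rpl18, with fold changes between 1.14 and 1.22 in the authors' deposited table. The median log2 fold change of the members in the authors' deposited table was 0.17, and 76 were positive.

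Rpl12, Rpl23 and Rps21 passed the threshold of the authors' deposited table. Rpl12 (ENSMUSG00000038900.17, GRCm38 chromosome 2, 32961559 to 32965345, plus strand) lies at the base of the stalk that recruits translation factors to the large subunit. Its log2 values were 15.33, 15.25, 15.34 and 15.27 in named Qk-KO 1 to 4, against 15.00, 15.08, 15.09 and 14.89 in named WT 1 to 4. All 4 named Qk-KO libraries exceeded all 4 named WT libraries, and the means differed by more than the range within either group. The limma difference was 0.28 ± 0.06 (SE, 95% interval 0.15 to 0.41, adjusted p = 0.315), and the authors' deposited table gives a log2 fold change of 0.28 (SE 0.07, adjusted p = 0.00408).

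Rpl23 (ENSMUSG00000071415.6, chromosome 11, 97777527 to 97782437, minus strand) is a protein of the large subunit that also binds Mdm2 when it is free. Its log2 values were 15.33, 15.28, 15.28 and 15.19 in named Qk-KO 1 to 4, against 15.04, 15.05, 15.08 and 14.87 in named WT 1 to 4. The groups did not overlap, and named WT 4 was the lowest library. The limma difference was 0.26 ± 0.06 (SE, 95% interval 0.13 to 0.40, adjusted p = 0.352), and the authors' deposited table gives 0.26 (SE 0.07, adjusted p = 0.0181).

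Rps21 (ENSMUSG00000039001.12, chromosome 2, 180257377 to 180258445, plus strand) is a small-subunit protein needed for late steps of small-subunit rRNA maturation. Its log2 values were 14.002, 13.973, 13.925 and 13.920 in named Qk-KO 1 to 4, against 13.649, 13.790, 13.797 and 13.631 in named WT 1 to 4. Again no named WT library reached a named Qk-KO library. The limma difference was 0.24 ± 0.06 (SE, 95% interval 0.11 to 0.36, adjusted p = 0.365), and the authors' deposited table gives 0.24 (SE 0.06, adjusted p = 0.0226). For these 3 genes limma and the authors' deposited table thus gave nearly the same size of difference and different adjusted p-values.

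The starts of the members, whose values moved together across libraries, were compared by their letters. RefSeq promoter windows on GRCm38.p6, from 250 bases before to 50 after the annotated start, matched 60 of the 79 genes in 72 windows. A C followed by at least 7 further C or T, between 50 bases before the start and 50 after it, was in 80.6% of the member windows, beside 28.8% of all 32851 windows and 32% of those of mitochondrial ribosomal proteins. A C exactly at the annotated start followed by at least 4 C or T, the form of a TOP start, was in 16.7% of member windows, 2.51% of all and 0% of the mitochondrial ones. The letters CCGGAAG on either strand, the core bound by GABP and other ETS factors, were in 34.7% of member windows, 8.86% of all and 34.7% of mitochondrial ones. AAGATGGC on either strand, the core bound by YY1, was in 11.1% of member windows, 2.75% of all and 16% of mitochondrial ones. TATAAA between 40 and 16 bases before the start was in 1.39% of member windows and 1.99% of all. A match describes letters only, and says nothing on the binding of a factor.

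Windows from 60 bases before to 10 after the annotated start are shown for the 3 genes called in the authors' deposited table, for Rps27 and Rps6 as examples with a pyrimidine run at the start, and for Rpl6, whose group means were almost equal. Capitals mark a run of C or T of at least 8 that begins with C, a TOP start, or CCGGAAG. The windows are Rpl12 at chr2:32961652-32961721 (plus strand), Rpl23 at chr11:97782430-97782499 (minus), Rps21 at chr2:180257319-180257388 (plus), Rps27 at chr3:90213639-90213708 (minus), Rps6 at chr4:86857358-86857427 (minus) and Rpl6 at chr5:121204441-121204510 (plus).
Rpl12: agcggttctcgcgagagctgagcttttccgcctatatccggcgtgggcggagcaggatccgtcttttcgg
Rpl23: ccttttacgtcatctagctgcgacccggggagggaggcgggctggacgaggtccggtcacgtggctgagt
Rps21: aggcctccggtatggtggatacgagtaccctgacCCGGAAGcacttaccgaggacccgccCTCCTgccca
Rps27: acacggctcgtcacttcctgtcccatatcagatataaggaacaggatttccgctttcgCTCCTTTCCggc
Rps6: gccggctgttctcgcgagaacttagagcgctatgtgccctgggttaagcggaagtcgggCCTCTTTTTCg
Rpl6: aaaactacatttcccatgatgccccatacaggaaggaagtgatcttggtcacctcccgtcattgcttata
In Rps27 and Rps6 the run spans or touches the annotated start, while the 70 bases of Rpl12, Rpl23 and Rpl6 hold no marked letters. Rpl12 and Rpl23, with the largest differences, and Rpl6, with nearly none, were thus alike in having none of these letters in the bases shown. Their longer windows differed: those of Rpl12 and Rpl6 held a pyrimidine run within 50 bases of the start, and that of Rpl23 held none. CCGGAAG was in the longer window of Rpl6 and in neither that of Rpl12 nor that of Rpl23. Rps21 had another annotated start, not shown, that lacked the form of a TOP start.

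**Figure D1:**
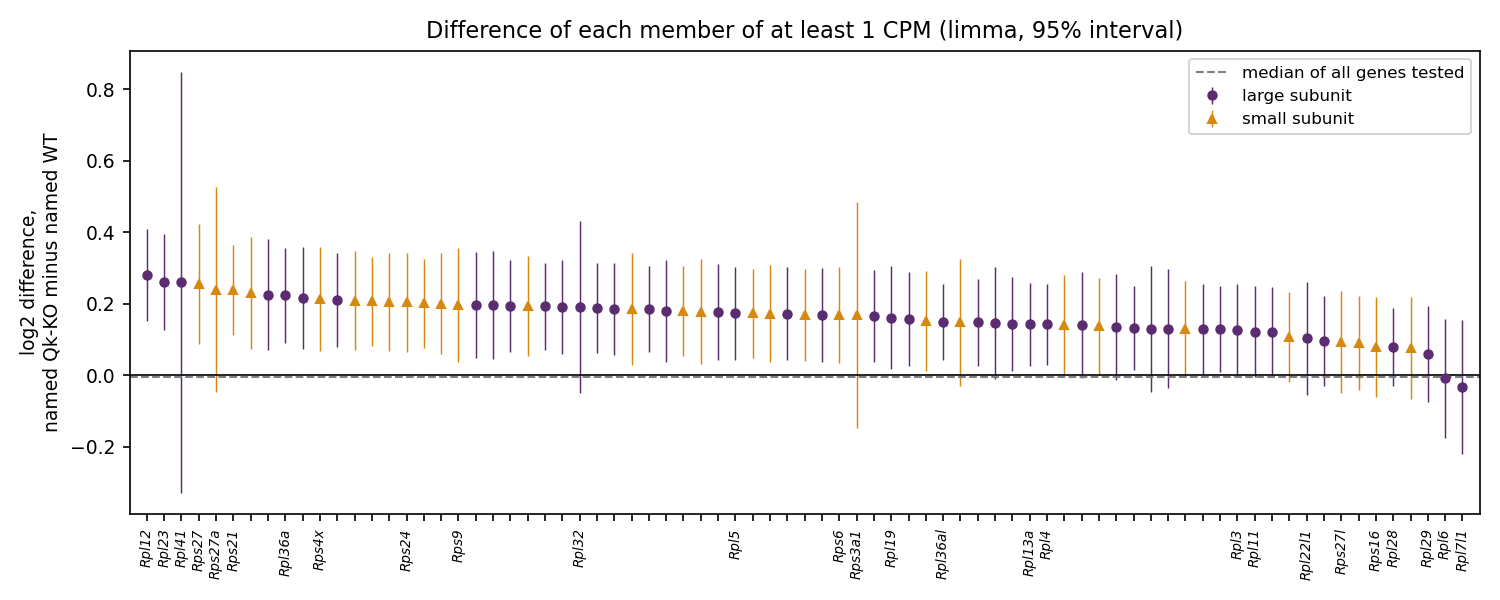
Log2 difference, named Qk-KO minus named WT, of the 77 members of at least 1 CPM, with limma 95% intervals from 4 libraries a group; circles are large-subunit and triangles small-subunit genes, and the dashed line is the median of all genes tested. Members are ordered by their difference, and some of those described in the text are named. Estimates ran from 0.28 (Rpl12) to -0.03 (Rpl7l1), and the widest interval belonged to Rpl41.

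The large and the small subunit gave similar values. All 31 small-subunit genes had a positive difference, with a median of 0.18, and 45 of 48 large-subunit genes did, with a median of 0.16. Among the 73 members above 100 CPM, differences ran from -0.01 to 0.28 with quartiles of 0.14 and 0.20, and 72 were positive. The 6 largest differences among members of at least 1 CPM were those of Rpl12, Rpl23, Rpl41, Rps27, Rps27a and Rps21. The median within-group SD of a member was 0.08. Rps27, a zinc-finger protein of the small subunit, had log2 values of 15.09, 15.03, 15.06 and 14.91 in named Qk-KO 1 to 4, against 14.76, 14.90, 14.82 and 14.58 in named WT 1 to 4. Its groups did not overlap, though named Qk-KO 4 and named WT 2 were nearly level, and its limma difference of 0.25 had an adjusted p of 0.444.

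Abundant members with well-known roles illustrate the common size of the difference. Rps4x, the X-linked small-subunit gene, had log2 values of 15.83, 15.77, 15.71 and 15.65 in named Qk-KO 1 to 4, against 15.54, 15.61, 15.58 and 15.38 in named WT 1 to 4. Rps9 had 15.80, 15.77, 15.84 and 15.73 in named Qk-KO 1 to 4, against 15.58, 15.72, 15.66 and 15.40 in named WT 1 to 4. In both genes the named groups did not overlap, and neither passed a threshold (limma differences 0.21 and 0.20, adjusted p = 0.448 and 0.520). Rps24, one of the genes mutated in human Diamond-Blackfan anaemia, differed by 0.20, again without overlap. Rpl13a, which in human cells also represses translation after interferon, differed by 0.14, as did Rpl4. Rpl19 differed by 0.16.

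Rps6, the substrate of the S6 kinases downstream of mTOR, and Rpl5 and Rpl11, which bind Mdm2 together with 5S rRNA, were picked after their values were seen because of these roles. Rps6 stood at 15.18, 15.13, 15.09 and 15.05 in named Qk-KO 1 to 4, against 14.94, 15.04, 14.99 and 14.82 in named WT 1 to 4. The highest named WT library and the lowest named Qk-KO library were almost level. The limma differences were 0.17 for Rps6, 0.17 for Rpl5 and 0.12 for Rpl11, and none passed the test (adjusted p = 0.515, 0.490 and 0.621).

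At the other end, Rpl6, a large-subunit protein at 516 CPM per kilobase, had almost the same mean in both groups. Its log2 values were 15.33, 15.22, 15.13 and 15.02 in named Qk-KO 1 to 4, against 15.19, 15.26, 15.23 and 15.06 in named WT 1 to 4. Named Qk-KO libraries were both the highest and the lowest of the 8. The limma difference was -0.01 (95% interval -0.18 to 0.16, adjusted p = 0.980), an interval that ends just short of the members' median, and its sign turned when libraries were centred on their medians. Rpl29, Rpl28 and Rps16 were among the abundant members with the next smallest differences, at 0.06, 0.08 and 0.08, with overlapping groups in each. Without named WT 4 the differences of Rpl6 and Rpl29 were -0.05 and 0.02.

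**Figure D2:**
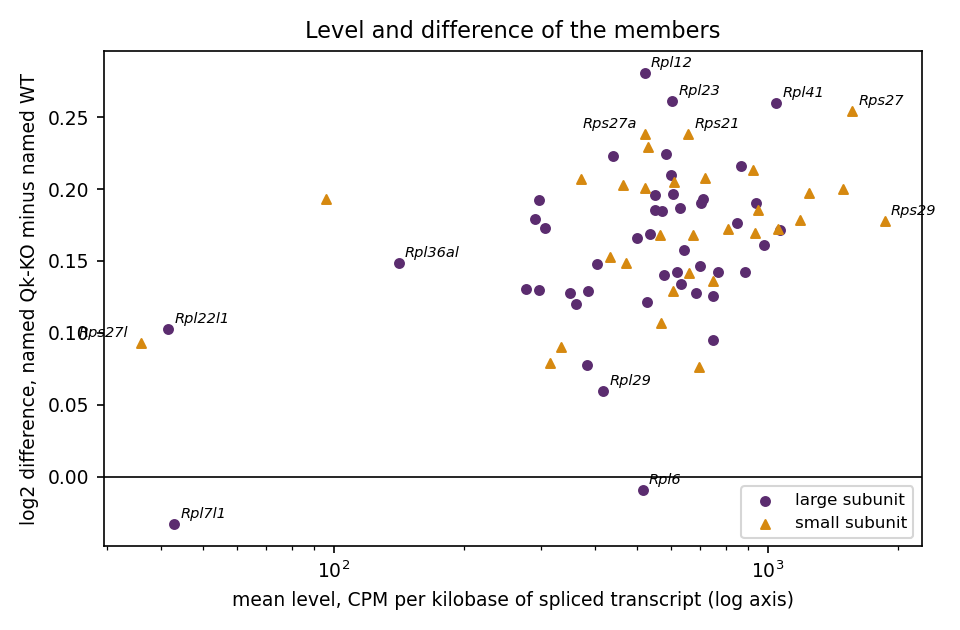
Mean level in CPM per kilobase of spliced transcript (log axis) against the log2 difference, named Qk-KO minus named WT, for the 77 members of at least 1 CPM. The abundant members form 1 cloud around 0.17 at every level, with Rpl12 and Rpl23 at its upper edge and Rpl6 below it, and the paralogues Rps27l, Rpl22l1 and Rpl7l1 lie to the left between 0.10 and -0.03.

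In each of the 4 pairs of members of at least 1 CPM the difference of the paralogue was the smaller one, with no test between the pair. Rps4l, a paralogue of Rps4x that is annotated as a pseudogene and so is no member, went the other way. Its difference was 0.24, beside 0.21 for Rps4x, and without named WT 4 these were 0.25 and 0.16. Rpl36al had log2 values of 12.14, 12.12, 12.10 and 12.11 in named Qk-KO 1 to 4, against 11.96, 12.02, 11.99 and 11.89 in named WT 1 to 4. It had the smallest within-group SD of all members, 0.04, and its groups did not overlap. Its difference was 0.15, beside 0.22 for Rpl36a. The remaining pairs gave 0.10 for Rpl22l1 and 0.15 for Rpl22, 0.09 for Rps27l and 0.25 for Rps27, and -0.03 for Rpl7l1 and 0.14 for Rpl7. Without named WT 4 the differences of Rpl22l1, Rpl7l1 and Rpl7 were 0.05, -0.01 and 0.09.

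Rpl7l1 ran against the other members across libraries. Its log2 values were 11.52, 11.61, 11.47 and 11.87 in named Qk-KO 1 to 4, against 11.63, 11.62, 11.63 and 11.72 in named WT 1 to 4. It was highest in the 2 libraries numbered 4, which had the lowest median deviation of the members in their groups. The log2 ratio of Rpl7l1 to Rpl7 was -3.67 ± 0.24 in named Qk-KO and -3.50 ± 0.15 in named WT libraries (SD, n = 4 each). Rpl3l and Rpl39l were too weakly detected to compare. Rpl39l ranged over 1.73 log2 units between libraries, with a difference of 0.36 (95% interval -0.62 to 1.34). Rpl3l differed by -0.02 (-0.20 to 0.17), or by -0.003 without named WT 4.

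What the members share most visibly is the order of the libraries. Each member was expressed as its deviation from its own mean over the 8 libraries, and the median over members was 0.13, 0.09, 0.09 and 0.01 in named Qk-KO 1 to 4, against -0.10, -0.01, -0.03 and -0.20 in named WT 1 to 4. Named Qk-KO libraries averaged 0.08 ± 0.05 and named WT libraries -0.08 ± 0.09 (SD, n = 4 each). The groups did not overlap, but named Qk-KO 4 and named WT 2 were 0.02 apart. Over the 1631 other genes of at least 100 CPM the medians were 0.08, 0.006, 0.04 and -0.08 in named Qk-KO 1 to 4. In named WT 1 to 4 they were 0.005, 0.004, 0.01 and -0.05. Those genes were thus also highest in named Qk-KO 1, and lowest in the libraries numbered 4. Named WT 4 held the lowest value of 71 members, where it held that of 16.6% of all genes tested, and named Qk-KO 1 held the highest value of 54 members, where it held that of 14.6% of all genes. By share of the signal the order was another, with named Qk-KO 4 the highest of the 8 libraries at 3.75% and named WT 4 again the lowest. In each library the medians of the large- and the small-subunit genes stayed within 0.02 of the common median.

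**Figure D3:**
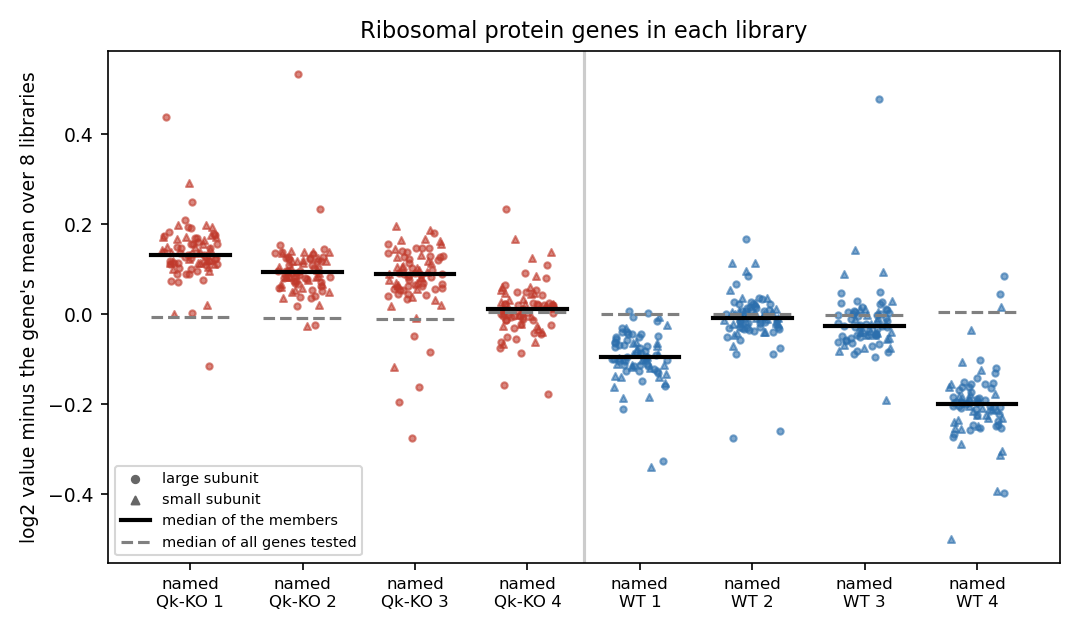
Each point is 1 member (circles large subunit, triangles small subunit), drawn as its log2 value minus its own mean over 8 libraries. Rpl39l is not drawn, while the medians are over all 79 members. Solid bars are the member medians, from 0.13 in named Qk-KO 1 to -0.20 in named WT 4, and dashed bars the medians of all genes tested, which stay within 0.02 of 0.

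Every named Qk-KO library exceeded every named WT library for 41 of 79 members, beside 3.04% of all genes tested and 5.27% of the 1631 other genes of at least 100 CPM. The reverse order occurred for 0 members. The count depends on how the libraries are scaled. The median log2 value of all tested genes was 7.19, 7.21, 7.21 and 7.40 in named Qk-KO 1 to 4, against 7.33, 7.32, 7.28 and 7.40 in named WT 1 to 4. With each library centred on that median, 1 member kept its groups apart (3.49% of all genes tested did), since the member medians became 0.24, 0.17, 0.17 and -0.10 in named Qk-KO 1 to 4, against -0.13, -0.04, -0.01 and -0.31 in named WT 1 to 4. Named Qk-KO 4 then lay among the named WT libraries, while all 79 differences were positive, with a median of 0.25 where that of all genes was 0.07.

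Leaving out single libraries moved the size and not the direction of the median. Without named WT 4 the median difference was 0.13, and without both named WT 4 and named Qk-KO 1 it was 0.11, with 76 of 79 positive in each case. After quantile normalization it was 0.11. Without named Qk-KO 4, 67 members had groups that did not overlap, beside 7.13% of all genes. Leaving out a library can only keep or raise this count, for members and for all genes alike.

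By the genotype field the members did not separate. Limma called 0 of 79 (0% of all genes tested), and 0 had an unadjusted p under 0.05, beside 2.67% of all genes. The median difference, genotype field Qk-KO minus genotype field WT, was 0.03, with 76 of 79 positive, beside 50.7% of all genes. Without named WT 4 the median was -0.03 and 14 were positive, so that direction rests on 1 library. The member with the smallest p was Rps27a, made as a fusion of ubiquitin with a small-subunit protein (limma, difference 0.27, adjusted p = 0.9995).

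A few members had patterns of their own that matched neither grouping. Within-group SD exceeded 0.2 in 4 members, Rpl39l, Rpl41, Rps3a1 and Rps27a, and the next was Rpl32 at 0.18. They were chosen for this spread after their values were seen. Rpl41 (chromosome 10, 128548114 to 128549305, minus strand) had log2 values of 15.05, 15.14, 14.33 and 14.43 in named Qk-KO 1 to 4, against 14.28, 14.33, 15.09 and 14.21 in named WT 1 to 4. Its 8 libraries formed a high set of 3 and a low set of 5 that cut across the names and the genotype field. Its difference by name was 0.26 with an interval of -0.33 to 0.85, and its place among the largest differences rests on this spread. The difference was 0.17 without named WT 4, and between 0.13 and 0.46 with any 1 library left out.

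Rps27a (chromosome 11, 29545846 to 29548109, minus strand) had log2 values of 14.19, 14.30, 14.38 and 14.35 in named Qk-KO 1 to 4, against 13.85, 14.30, 14.33 and 13.79 in named WT 1 to 4. Named WT 1 and named WT 4 were low and the other 6 libraries were close together. Its difference by name was 0.24, and 0.15 without named WT 4. By genotype field it averaged 14.32 ± 0.03 in Qk-KO libraries (SD, n = 4), while the WT libraries ranged widely. Its exons overlap those of Clhc1 on the opposite strand, and the counting is not stated to use strand. Rpl32 had 14.99, 14.97, 14.54 and 14.83 in named Qk-KO 1 to 4, against 14.72, 14.48, 14.79 and 14.58 in named WT 1 to 4, and the groups overlapped.

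Rps3a1, a small-subunit protein near the mRNA exit (chromosome 3, 86137940 to 86142702, minus strand), mirrored the annotated pseudogenes that resemble it. Its log2 values were 15.21, 14.96, 14.80 and 15.05 in named Qk-KO 1 to 4, against 14.90, 15.02, 15.01 and 14.42 in named WT 1 to 4. The pseudogene Rps3a3 had 10.26, 11.47, 11.87 and 9.76 in named Qk-KO 1 to 4, against 10.48, 10.20, 8.50 and 12.05 in named WT 1 to 4. Rps3a3 was thus highest in named WT 4, where Rps3a1 was lowest, and Rps3a2 was also highest there at 12.11. Adding the signal of the 3 rows, a sum chosen after the values were seen, narrowed the range over the 8 libraries to 0.46 log2 units, from 0.79 for Rps3a1 alone. The summed level was 15.23 ± 0.09 in named Qk-KO and 15.07 ± 0.12 in named WT libraries (SD, n = 4 each), a difference of 0.16, or 0.11 without named WT 4. Rps3a1 alone differed by 0.17, or by 0.03 without named WT 4.

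**Figure D4:**
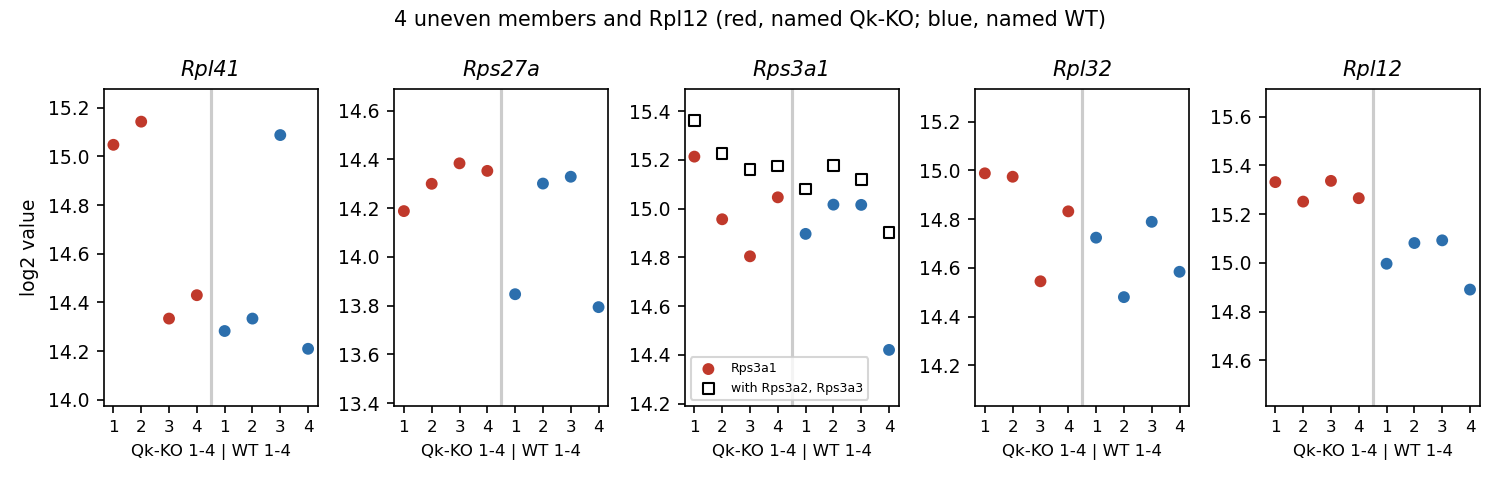
Log2 values of Rpl41, Rps27a, Rps3a1 and Rpl32, the abundant members with the largest within-group SD, and of Rpl12 for contrast, in named Qk-KO 1 to 4 (red, left) and named WT 1 to 4 (blue, right); the panels have different centres and the same span. Open squares add the signal of Rps3a2 and Rps3a3 to Rps3a1, after which named WT 4 stands at 14.90 in place of 14.42.

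Ribosomal proteins outside the symbol pattern followed the members. Of the 6, all had a positive difference, with a median of 0.19, and 5 had groups that did not overlap, beside 3.04% of all genes. Without named WT 4 the median was 0.15. Limma and the authors' deposited table called 0 of them, and 6 had an unadjusted limma p under 0.05, beside 3.76% of all genes. Rplp0, the central protein of the stalk, had 16.11, 16.05, 16.04 and 15.95 in named Qk-KO 1 to 4, against 15.82, 15.91, 15.88 and 15.72 in named WT 1 to 4. Rpsa, a small-subunit protein also known as a laminin receptor, had 15.96, 15.92, 15.96 and 15.90 in named Qk-KO 1 to 4, against 15.76, 15.82, 15.80 and 15.65 in named WT 1 to 4. In both the groups stood apart, and the differences were 0.20 and 0.18.

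Ribosomal protein pseudogenes also had mostly positive differences, with 128 of 149 differences positive, beside 48.8% of all genes tested, and a median of 0.16. Without named WT 4, 117 were positive and the median was 0.13. The authors' deposited table called 1 of the 98 it tested, Rps24-ps3, at a log2 fold change of 0.45 (adjusted p = 0.0131), beside 0.551% of all its genes called as higher. Their rows are near-copies of the members and may hold members' reads, so they are not separate evidence.

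Other TOP mRNAs gave a smaller value of the same sign. Of 21 tested, 19 were positive, and the median was 0.10, or 0.07 without named WT 4. Neither limma nor the authors' deposited table called any, and 5 had an unadjusted limma p under 0.05, beside 3.76% of all genes. Gnb2l1, the older symbol of Rack1, a scaffold protein bound to the small subunit, had 15.81, 15.76, 15.73 and 15.61 in named Qk-KO 1 to 4, against 15.51, 15.59, 15.59 and 15.37 in named WT 1 to 4. All named Qk-KO values of Gnb2l1 lay above all named WT values. Vim, the intermediate filament vimentin, differed by 0.35 with overlapping groups (limma adjusted p = 0.659).

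Genes that build ribosomes had medians closer to that of all genes tested. Among 13 genes of rRNA transcription 8 were positive, with a median of 0.05, and the largest differences were 0.25 for Myc, the transcription factor that drives ribosome production, and 0.25 for Taf1d, a subunit of the RNA polymerase I factor SL1. Without named WT 4 these were 0.14 and 0.17. Among 25 genes of snoRNP and nucleolar processing 15 were positive, with a median of 0.04. The extremes there were 0.25 for Nop10 and -0.23 for Gar1, which are both core proteins of the same H/ACA snoRNPs. Among 13 genes of late maturation and export 6 were positive, with a median of -0.002, or 0.01 without named WT 4. Bysl, a small-subunit assembly factor, differed by -0.19, and Xpo1, the export receptor that carries subunits out of the nucleus, by 0.14. None of the genes of these lists was called by limma or in the authors' deposited table.

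Regulators and chaperones were likewise mixed. Of 16 regulators of ribosomal protein mRNAs and of the p53 branch, 8 were positive and the median was 0.001, or -0.03 without named WT 4. Cnbp, which binds TOP mRNAs, had 13.38, 13.10, 13.20 and 13.10 in named Qk-KO 1 to 4, against 12.82, 12.97, 12.77 and 11.85 in named WT 1 to 4. The named groups of Cnbp did not overlap and named WT 4 was again far the lowest, with a limma difference of 0.59 (adjusted p = 0.561). Without named WT 4 the difference was 0.34 (limma, adjusted p = 0.625). Mdm2, the ligase of p53, differed by 0.19. Of 12 chaperones 8 were positive, with a median of 0.04. Naca, Btf3 and Nap1l1 in this list are also counted among the other TOP mRNAs above. Naca, which shields nascent chains at the exit tunnel, differed by 0.17, and Bccip, a chaperone of Rpl23, by -0.11. The 2 lists held 0 genes called by limma or in the authors' deposited table.

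Mitochondrial ribosomal proteins, which serve the separate ribosome of mitochondria, had a median near that of all genes. Of 81 genes 46 were positive, or 56.8%, beside 48.8% of all genes tested, and the median was 0.03. The authors' deposited table called 1 of the 81, Dap3, at a log2 fold change of 0.26 (adjusted p = 0.0444). Of all genes it tested, 0.551% were called as higher. Limma called 0 of this list. The deviations of this list were -0.02, 0.06, -0.05 and 0.05 in named Qk-KO 1 to 4, against -0.03, 0.001, -0.02 and 0.01 in named WT 1 to 4, with named WT 4 in no extreme place.

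**Figure D5:**
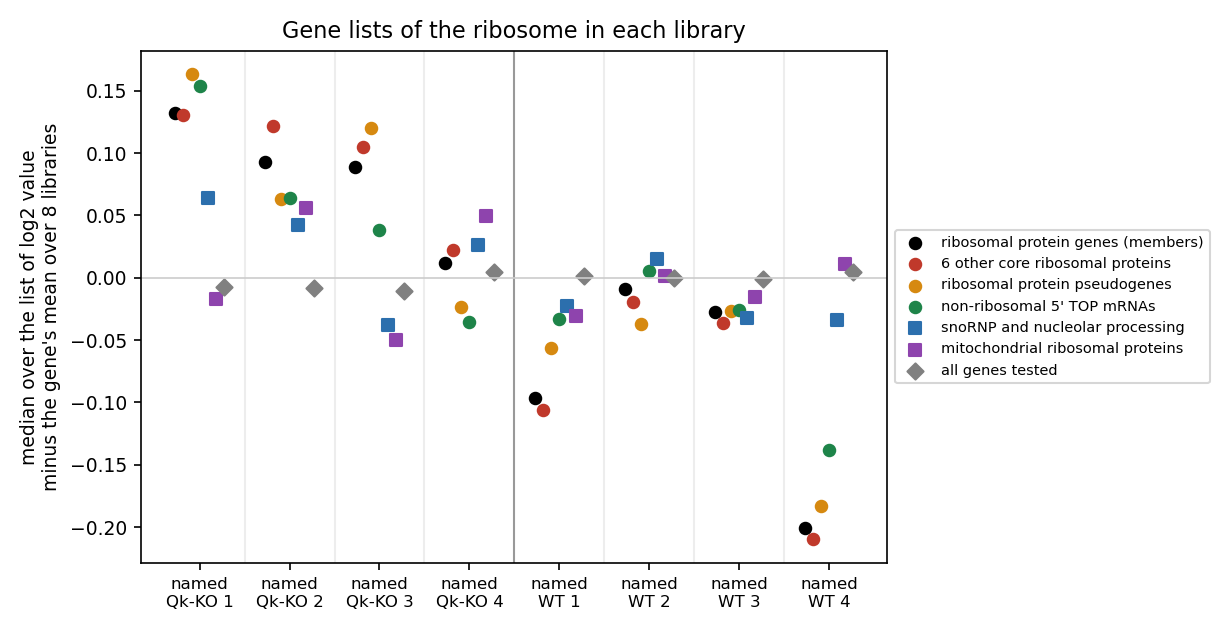
Median deviation of each gene list from the genes' own means, per library, on the log2 scale. The members, the 6 other ribosomal proteins, the pseudogenes and the other TOP mRNAs are all highest in named Qk-KO 1 and lowest in named WT 4, while the nucleolar and mitochondrial lists stay between -0.05 and 0.06.

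Cell type markers also varied between libraries, and not all of them followed the order of the members. The marker transcripts of other cell types were highest in named Qk-KO 4 and named WT 4 for astrocytes (median deviations 1.33 and 1.24) and oligodendrocytes (1.35 and 1.27), and these had the lowest median deviation of the members in their groups, though by share of signal named Qk-KO 4 was the highest library. Of 8 astrocyte markers all 8 had a negative difference by name, and their sum was 85.2 to 504 CPM in named Qk-KO and 207 to 545 CPM in named WT libraries. The 8 oligodendrocyte markers were also all negative (6 were positive without named WT 4), at 126 to 271 CPM in named Qk-KO and 134 to 315 CPM in named WT. The 5 erythroid markers were all negative, at 120 to 285 CPM in named Qk-KO and 226 to 411 CPM in named WT. Their median deviation was highest in named WT 2, at 0.71. Endothelial markers had 6 of 7 negative, at 216 to 243 CPM in named Qk-KO and 199 to 273 CPM in named WT. Microglial markers, whose sums did not overlap between the named groups as given above, matched 11 rows, which can exceed the number of genes. Of these rows 8 were negative. The authors' deposited table called 2 of the 11 lower in named Qk-KO, beside 95 of the 14150 genes it tested. None of these markers was without reads, and their part in the result was not tested.

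Short transcripts had a higher median difference than longer ones. Of coding genes outside the members with at least 10 CPM, the 492 with transcripts under 1 kilobase had a median difference of 0.04, with 63.4% positive and 6.30% without overlap. The 1623 genes of 1 to 2 kilobases had a median of 0.01, with 52.8% positive and 4.13% without overlap. The 3242 genes of 2 to 4 kilobases had a median of 0.01, with 52.5% positive, and the 2631 longer genes a median of 0.01, with 55.3% positive. At a level of at least 100 CPM the 57 short genes had a median of 0.06, with 64.9% positive, and the 681 genes over 4 kilobases had 0.03, with 59.2% positive. The part of length in the members' larger median was not tested. Transcripts encoded by mitochondria, a sign of RNA quality, summed to 1206 to 12028 CPM in named Qk-KO and 713 to 5745 CPM in named WT libraries, and their part was not tested.

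The members lie on 19 chromosomes, with 13 on chromosome 7 and 4 on X, and the 4 X-linked genes had a median difference of 0.19, beside 0.17 for the others. Many ribosomal protein genes host small nucleolar RNAs in their introns. Exons here are those of all annotated transcripts of a gene, non-coding ones included, so an overlap need not touch the coding mRNA. Exons of 23 members overlapped an annotated snoRNA or miRNA on the same strand, and their median difference was 0.16, beside 0.17 for the other 56. Exons of 13 members overlapped a coding gene on the opposite strand, Rpl12 (Lrsam1) among them, and those of Rps10, Rpl36al and Rpl13a overlapped another coding gene on the same strand, so that some of their reads may belong to the neighbour.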

How the data were processed

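The deposited table holds, per the file headers, 8 library columns that the authors computed on a log2 scale, a mean normalized signal, the authors' log2 fold change and its SE, the score of their test, and raw and adjusted p-values. The log2 values behave as regularized values, shrunken towards a gene's mean where reads are few, and the table holds no counts. Tools named in the submitters' processing notes are HISAT2, StringTie, DESeq2 and FastQC, with the build mm10 and no roles, and the annotation release and strand setting are not given in the sources used here. CPM is the authors' deposited signal divided by 56.8, and depth per library was estimated from what 1 read is worth among genes seen in a single library.

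The 22546 genes that had reads, and in 4 or more libraries a normalized value of 1 or more, were fitted with limma 3.58.1 in R 4.3.3 (trend, robust, no pseudocount, Benjamini-Hochberg over all genes), once by sample name and once by genotype field. The fit was also run on simulated data with separate noise for each gene and planted changes larger than those of the members. That run does not bear on genes that differ by little and vary together. Positions and spliced lengths are from GENCODE vM21 (GRCm38), which matched 79 of 79 members, using the shortest principal coding transcript. Named members were those called, those of highest and lowest mean signal (the ranking per coding length was replaced by its stated fallback), the 6 largest and 6 smallest differences, and paralogues with partners. Of each other list the text names called genes or the 2 largest differences. A few genes that these rules take are not reported here. Alternatives were other scalings, filters and variance settings, and leaving out libraries. The members and lists were chosen with earlier results of these data known.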

Additional observations from a re-analysis of the deposited data

Results flagged for a closer look

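Over the named members and the median of all members, 60 groups of 4 libraries were examined for a library far from the other 3, and 5 were found, where chance gives about 1 in 20 groups. Rpl13a was lowest in named Qk-KO 4, at a log2 value of 15.49, where the other named Qk-KO libraries lay between 15.57 and 15.58. Rpl41 was highest in named WT 3, at 15.09, where the other named WT libraries lay between 14.21 and 14.33. Named WT 4 stood apart in the remaining 3. There Rpl4 was at 15.57, below the 15.67 to 15.68 of the other named WT libraries. Rpl22l1 was at 10.14, below 10.34 to 10.35. Rpl7l1 was at 11.72, above 11.62 to 11.63. Named WT 4 was therefore the low library for 2 genes of this set and the high library for the other. The median of all members had no library flagged in either named group.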

How the results depend on the processing

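Across the alternatives, 123 of 130 summary values and 495 of 511 values of single genes and lists kept their direction, their side of the threshold and their size. Limma called 0 members under every alternative. The median difference by name was 0.25 with libraries centred on their medians and 0.13 to 0.20 with 1 library left out. Members at an unadjusted p under 0.05 numbered 34 after quantile normalization (3.94% of all genes) and 21 without named WT 4 and named Qk-KO 1 (3.12%), which was added after the values were seen, and 37 to 61 with 1 library left out (2.66% to 6.61%). Members whose named groups did not overlap numbered 41 with all libraries, beside 3.04% of all genes tested, and 1 after centring. With 1 library left out they numbered 41 to 67 (67 without named Qk-KO 4). Leaving out a library can only keep or raise this count, for members and for all genes alike, so that range is no test of it. Positive differences by genotype field numbered 14 to 79 with 1 library left out (14 without named WT 4). At an adjusted p under 0.1 the authors' deposited table had 9 members. Of the named members, those with differences near 0 changed sign. Rpl3l was at 0.0611 after centring, 0.0250 with library weights and -0.0640 to 0.0374 with 1 library left out. Rpl6 was at 0.0674 after centring, 0.000256 with library weights and -0.0602 to 0.0420 with 1 left out. Rpl7l1 was at 0.0438 after centring, 0.0229 without named WT 4 and named Qk-KO 1, and -0.116 to 0.0154 with 1 left out. The cause was not tested. The labels number the libraries 1 to 4 in each named group without saying what a number shares. Same-numbered libraries correlated at 0.04, 0.15, 0.25 and 0.46 in their deviations from the group means, and not every library matched its own number best, so the numbers were not taken as pairs. With a replicate block limma called 0 members, 60 had an unadjusted p under 0.05, beside 5.62% of all genes, and the median was 0.17.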
